A study of Macaca mulatta with 11 samples.

Results

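GJA5 encodes the gap junction subunit Cx40, and 2 probe sets of the Affymetrix Rhesus Macaque array carry its gene symbol. They are 2 of the 52766 probe sets other than controls, of which 24956 carry a single symbol. The gene was selected on its measured log2 levels in the arrays described here, so its levels and differences are given as a description, with no test. RNA was measured in cumulus cells of rhesus monkeys, the somatic cells around the oocyte in the cumulus-oocyte complex, on 11 arrays with 1 sample each. All groups had FSH stimulation. The 4 pre-maturation samples (PM) came from immature complexes after FSH only. For the 3 in vitro matured samples (IVM), FSH was followed by maturation of the complexes in vitro. For the 4 in vivo matured samples (VVM), FSH was followed by maturation in vivo with hCG. The labels give no age, strain or pooling and do not name the animals. Whether the arrays of a group are separate animals is therefore unknown, and a p-value of another gene reflects only the spread between these samples, which may be technical.

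Connexins assemble into hexameric channels, and channels of neighbouring cells dock to form gap junctions that pass ions and small molecules. In the ovarian follicle, gap junctions couple cumulus cells to each other and to the oocyte and carry cyclic GMP and nutrients inward. Coupling declines after the ovulatory gonadotropin surge. Cx40 itself is best known from the endothelium of arteries and from the conduction system and atria of the heart.

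The levels of the brighter GJA5 probe set differed among the 3 groups, highest after maturation in vitro and lowest after maturation in vivo. In PM 1 to 4 the log2 intensity was 8.50, 9.77, 8.35 and 9.32. In IVM 1 to 3 it was 11.31, 10.64 and 12.15. In VVM 1 to 4 it was 7.78, 5.40, 5.93 and 7.81. Every IVM array lay above every PM array, and every PM array lay above every VVM array, so no pair of groups overlapped. On the linear scale, the deposited intensity ran from 325 to 875 in PM, from 1596 to 4542 in IVM and from 42.3 to 225 in VVM.

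The mean was 8.99 ± 0.68 (SD, n = 4) before maturation. It was 11.37 ± 0.76 (SD, n = 3) in IVM. In VVM it was 6.73 ± 1.25 (SD, n = 4). IVM exceeded VVM by 4.63 on the log2 scale, a 24.8-fold difference in intensity. IVM exceeded PM by 2.38, or 5.21-fold, and the VVM mean minus the PM mean was -2.25. All 3 differences are larger than the SD of any group. The gaps between the nearest arrays of neighbouring groups were narrower. The lowest IVM array lay 0.87 above the highest PM array, and the lowest PM array lay 0.53 above the highest VVM array. Both gaps are smaller than the range within any group, which was 1.43 in PM, 1.51 in IVM and 2.41 in VVM. Only IVM and VVM were separated by more than those ranges, by 2.83 from the lowest IVM to the highest VVM array. In bulk RNA, fewer cells of a type and less RNA per cell cannot be told apart.

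**Figure D1:**
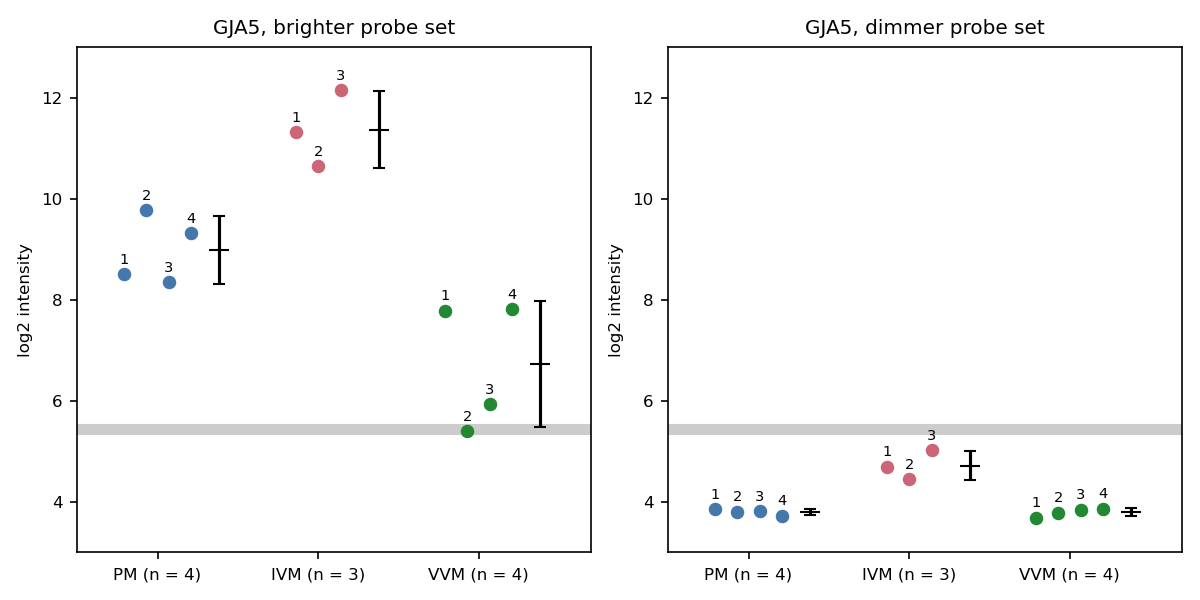
Log2 intensity (vertical axis) of the 2 GJA5 probe sets in the 4 PM, 3 IVM and 4 VVM arrays, 1 numbered point per array, with the group mean ± SD in black and the range of the array medians (5.34 to 5.53) in grey. In the brighter probe set the groups do not overlap; in the dimmer one, PM and VVM overlap and all arrays lie below the grey band.

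The dimmer GJA5 probe set set the IVM arrays apart, while VVM and PM lay together. It read 3.85, 3.80, 3.81 and 3.73 in PM 1 to 4. It read 4.70, 4.44 and 5.02 in IVM 1 to 3, and 3.69, 3.79, 3.85 and 3.86 in VVM 1 to 4. Every IVM array was above every other array, while the PM and VVM arrays overlapped. The IVM mean of 4.72 ± 0.29 (SD, n = 3) exceeded the VVM mean of 3.80 ± 0.08 (SD, n = 4) by 0.92, or 1.90-fold, and the PM mean of 3.80 ± 0.05 (SD, n = 4) by 0.92, or 1.89-fold. VVM minus PM was -0.002. The IVM arrays kept the same order in both probe sets, with IVM 3 highest and IVM 2 lowest. All 11 values of the dimmer probe set lay under the median of their array. Detection calls were not used here, so the folds of this probe set are at best lower bounds.

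Among 14132 genes with 1 representative probe set each, the IVM minus VVM difference of GJA5 was the largest rise, followed by BMPER at 4.32 and ASNS at 4.09. Over all 52766 probe sets it also ranked 1. In IVM minus PM it ranked 111 among rises, and in VVM minus PM it ranked 232 among falls. These ranks restate the choice of the gene. Over the same 14132 genes, limma called 16.7% between IVM and VVM (9.06% higher and 7.63% lower in IVM) at an adjusted p under 0.05. Between IVM and PM it called 45.9% (25% higher and 20.9% lower in IVM), and between VVM and PM 39.8% (18% higher and 21.8% lower in VVM).

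VVM 2 and VVM 3 stood apart in leukocyte genes. They had the highest levels of LYZ, the lysozyme of myeloid cells, at 7.62 and 9.51. In the other 9 arrays LYZ ran from 3.32 to 5.10. The summed intensity of 10 measured leukocyte genes was 2121 in VVM 2 and 5762 in VVM 3, against 695 in VVM 1 and 618 in VVM 4. It ranged from 1324 to 1552 in PM and from 562 to 802 in IVM. The PM sum is weighted to CSF1R, which read 10.10 in PM and was lower by -2.04 in IVM and -2.57 in VVM. Counted by gene, 6 of the 10 were higher and 2 lower in VVM than in PM (18% and 21.8% over all genes). Without PM 1, VVM 2 and VVM 3 it was 4 and 1. In IVM, 1 was higher and 2 lower than in PM. VVM 2 and VVM 3 also had the lowest GJA5 levels, 5.40 and 5.93, and the part of leukocyte RNA in these was not tested. Without VVM 2 and VVM 3, IVM still exceeded VVM by 3.57, or 11.9-fold, and PM exceeded VVM 2.28-fold (VVM minus PM -1.19).

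The bacterial hybridization controls, RNA added to every sample before hybridization, also differed among the groups. Their mean log2 level over 18 probe sets was lowest in PM at 10.05 ± 0.21 (SD, n = 4) and highest in IVM at 11.91 ± 0.40 (SD, n = 3), with VVM between them at 11.03 ± 0.43 (SD, n = 4). No pair of groups overlapped in it, so the control level and the group cannot be told apart. With the control level as a covariate, the fitted GJA5 difference was 5.96 for IVM minus VVM, 5.18 for IVM minus PM and -0.79 for VVM minus PM. The direction was the same in all 3, and the difference of VVM from PM became smaller. In that fit limma called 718 probe sets between IVM and VVM, 8 between IVM and PM and 3721 between VVM and PM, against 5989, 21448 and 16483 without it. Of the calls named below from the gene lists, CNST, KLF2 and ENG between IVM and VVM, and CNST between IVM and PM, stayed past the threshold. Between VVM and PM it was GJC3, PANX1, CAV1, SRC, CNST, PDE5A, GATA4, HEY2 and RBPJ.

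**Figure D2:**
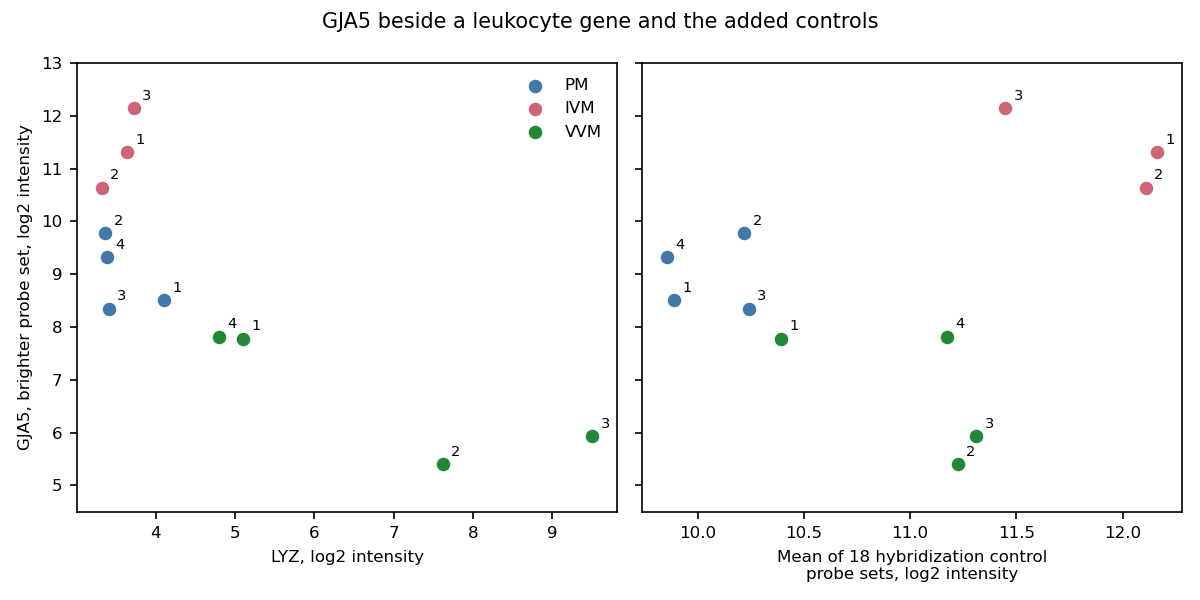
Log2 intensity of the brighter GJA5 probe set (vertical axes) against the log2 intensity of LYZ (left) and the mean log2 intensity of 18 hybridization control probe sets (right), 1 numbered point per array, coloured by group. VVM 2 and VVM 3 are lowest for GJA5 and highest for LYZ, and the 3 groups do not overlap in the controls.

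The cell type label was checked against marker genes. Of 15 measured granulosa and cumulus genes, 13 or 14 lay above the array median in every array, and INHA, the inhibin alpha subunit, averaged between 13.28 and 13.84 on the log2 scale in the 3 groups. Array medians lay between 5.34 and 5.53. Centring each array on its median moved the median difference over all genes from 0.12 to -0.03 for IVM minus PM and from 0.04 to -0.07 for VVM minus PM. The share of called genes that were higher moved with it, from 54.5% to 37.9% and from 45.3% to 32.6%. GJA5 differed from PM by 2.23 in IVM and by -2.36 in VVM after centring, against all-gene medians close to 0. PM 1 stood apart in oocyte genes, with a summed intensity of 2504 over 9 genes against 695 to 1151 in the other arrays. Its GJA5 level of 8.50 lay within the range of the other PM arrays.

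Marker genes were also counted in the comparison where GJA5 differed most. There, limma called 9.06% of all genes higher and 7.63% lower in IVM. Between IVM and VVM, 7 of the 15 granulosa and cumulus genes were higher in IVM and 0 lower (median 0.66). Among them was CYP19A1, the estrogen-forming aromatase, by 1.91 ± 0.41 (SE, adjusted p = 0.0122, limma). The calls of CYP19A1 and GATA4 were kept without any 1 array. Those of HSD17B1, INHBB and INHBA were each lost without IVM 3, VVM 1 or VVM 4, among other arrays. Of 10 leukocyte genes 0 were higher and 3 lower in IVM (LYZ, TYROBP and, in 1 of its 3 probe sets, MAMU-DRA). Each of these calls was lost without VVM 2 or without any 1 of the IVM arrays. Of 9 oocyte genes 1 was higher (ZP1, by 0.65) and 0 were lower, and that call was lost without any 1 of IVM 2, IVM 3, PM 2, PM 4, VVM 1, VVM 2 or VVM 4. Of 5 smooth muscle and theca genes limma called 0, and 2 had an unadjusted p under 0.05. Their part in the GJA5 levels was not tested.

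Since arterial endothelium is a known site of GJA5, 23 measured genes of that cell type were set beside it. ERG, ENG, ACVRL1, DLL4, NOTCH4, SOX17 and HEY2 are also among the regulators of GJA5 below, so their calls count in both lists. Their summed intensity ranged from 3841 to 4661 in PM, from 2467 to 2503 in IVM and from 1974 to 3116 in VVM. A sum of intensities is weighted to the brightest genes, and HEY2, at 11.02 in PM, was lower in both matured groups. Counted by gene, IVM against PM gave 9 of the 23 higher and 4 lower (median 0.35), and 7 were higher and 2 lower in VVM than in PM (median 0.26). Over all genes the shares were 25% higher and 20.9% lower in IVM, and 18% and 21.8% in VVM. The 4 lower in IVM than in PM were ERG, EFNB2, CXCR4 and HEY2, by -3.67, -2.67, -2.13 and -1.59. Among the 9 higher, ENG was higher by 1.51. CDH5, TIE1 and ROBO4, all genes of endothelial cells, were higher by 0.52, 0.50 and 0.49 (adjusted p = 0.00772, 0.00359 and 0.00614, limma). CDH5 and ROBO4 were each called in 1 of 2 probe sets. When PM 1, VVM 2 and VVM 3 were all dropped, 1 of the 23 was higher and 2 lower in VVM than in PM. The part of endothelial RNA in the GJA5 levels was not tested. Between IVM and VVM, limma called 2 of the 23 higher and 2 lower in IVM, against 9.06% and 7.63% of all genes. KDR, the main endothelial VEGF receptor, lay below the array medians in all groups (3.68 in IVM and 3.76 in VVM). The endothelial cadherin CDH5 read 6.47 in IVM and 6.22 in VVM, a difference of 0.25 (adjusted p = 0.243, limma). CLDN5, a tight junction protein of endothelium, differed by -0.14 (adjusted p = 0.619, limma). The called genes were ENG and HEY2, higher in IVM, and EFNB2 and VWF, lower in IVM, each in 1 of 2 probe sets. EFNB2 was lower by -2.55 ± 0.48 (SE, adjusted p = 0.00667, limma), a call kept without any 1 array. VWF was lower by -1.77 ± 0.51 (SE) with an adjusted p of 0.0466 in limma. Leaving out any array but VVM 4 ended that call, with differences from -1.93 to -1.29. When PM 1, VVM 2 and VVM 3 were all dropped, 2 were higher and 0 lower in IVM.

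Among the measured connexins, the brighter GJA5 probe set had the widest span of level. GJA5 was chosen on these levels, so its contrasts with the other connexins restate that choice. Of 20 other connexin genes looked for, 12 were measured. The rest were not analysed here, among them GJA1, the main connexin between cumulus cells. Over the 11 arrays the brighter GJA5 probe set spanned 6.75 on the log2 scale, and the dimmer one 1.33. The widest span among the other connexins was 1.28, in GJC1. The other connexins were dim, with 4 to 7 of the 12 above the array median in each array. Dim probe sets can hide a change, so a narrow span does not show that a gene was steady. Between IVM and VVM, limma called 0 of the 12 at an adjusted p under 0.05, against 16.7% of all genes. An unadjusted p under 0.05 was reached by 0 of them. Their differences ran from -0.01 to 0.34 with a median of 0.06, against a median of 0.08 over all genes. GJA4, which forms the junctions between oocyte and cumulus in mice, differed by 0.27 ± 0.13 (SE, adjusted p = 0.224, limma). GJA3, a connexin of the lens, differed by 0.21, and GJB1 and GJB6, known from liver and inner ear, by 0.04 and 0.07. GJA9 differed by 0.01, GJA10 by 0.03, GJB5 by 0.21 and GJD3 by 0.13. GJD2 had the largest difference, 0.34 ± 0.17 (SE), against 4.63 in the brighter and 0.92 in the dimmer GJA5 probe set.

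**Figure D3:**
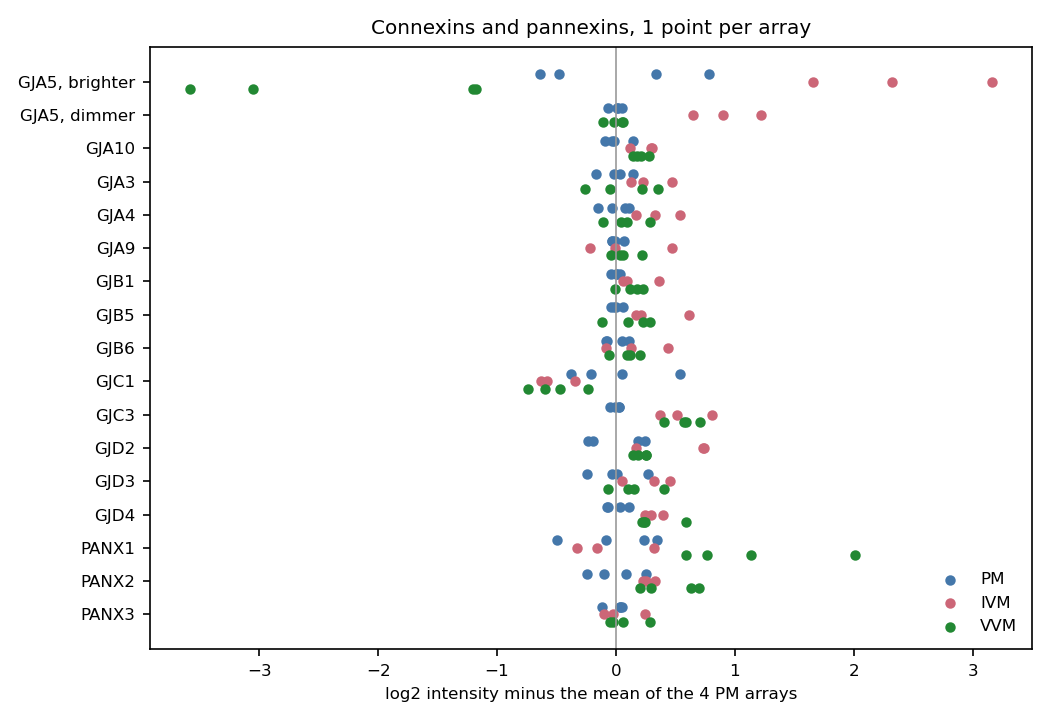
Log2 intensity minus the mean of the 4 PM arrays (horizontal axis) for both GJA5 probe sets, 12 other connexins and 3 pannexins, 1 point per array, coloured by group. The brighter GJA5 probe set spreads over 6.75 log2 units and the dimmer one over 1.33, and the other connexins, many of them dim, stay within 1.28.

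Against PM, 2 of the 12 other connexins were called higher in IVM and 2 in VVM, 16.7% of those measured in each case. Over all genes, 45.9% were called in IVM (25% higher) and 39.8% in VVM (18% higher). GJC3, a connexin of myelinating glia, rose in both. It read 5.30, 5.34, 5.33 and 5.26 in PM 1 to 4, then 5.82, 5.68 and 6.12 in IVM 1 to 3, and 5.90, 5.71, 5.88 and 6.02 in VVM 1 to 4. Both matured groups lay above all PM arrays, by 0.56 ± 0.12 (SE, adjusted p = 0.00449, limma) and by 0.57 ± 0.11 (SE, adjusted p = 0.00319, limma). GJC3 did not separate IVM from VVM, where GJA5 was furthest apart (difference -0.01).

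The other calls among connexins were less steady. GJD2, the connexin of electrical synapses, was higher in IVM than in PM by 0.55 ± 0.17 (SE, adjusted p = 0.0241, limma). That call was lost without IVM 1, IVM 2, PM 1 or PM 3 (0.45 to 0.48, adjusted p up to 0.0938 in limma). GJD4 was higher in VVM than in PM by 0.32 ± 0.11 (SE, adjusted p = 0.0437, limma). Leaving out 7 of the 11 arrays, each in turn (IVM 1, PM 1, PM 3, PM 4, VVM 1, VVM 2 or VVM 3), ended the call (0.24 to 0.35). After centring or a further quantile normalization GJD2 and GJD4 were no longer called, and GJC1 (Cx45 in the heart) was called lower in both matured groups. Its main differences from PM were -0.52 in IVM and -0.51 in VVM, with adjusted p of 0.0623 and 0.0597 in limma. Changes of this size stand against 2.38 and -2.25 for the brighter GJA5 probe set, and 0.92 and -0.002 for the dimmer one.

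Pannexins form channels in the plasma membrane that release ATP and are not known to dock as gap junctions in most tissues. PANX1 moved from PM to VVM opposite to the brighter GJA5 probe set (the dimmer one differed by -0.002 there). PANX1 read 6.52, 5.64, 5.10 and 5.28 in VVM 1 to 4, from 4.01 to 4.85 in PM and from 4.18 to 4.83 in IVM. All VVM arrays lay above all others. The difference of VVM from PM was 1.13 ± 0.30 (SE, adjusted p = 0.0144, limma), and that of IVM from VVM was -1.18 ± 0.32 (SE, adjusted p = 0.0366, limma). The second call was lost without IVM 2, IVM 3, PM 1, VVM 1 or VVM 2, with differences from -1.18 to -0.88. With PM 1, VVM 2 and VVM 3 all left out, neither call remained. PANX2 was higher in VVM than in PM by 0.46 ± 0.14 (SE, adjusted p = 0.0318, limma) in 1 of its 2 probe sets, a call lost without PM 1, PM 4, VVM 1 or VVM 2. PANX3 was not called in any comparison.

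Transcription factors and signalling genes that control GJA5 in the heart or in arteries, mostly known from mice, did not move one way between IVM and VVM. Both activators and repressors are among them, so a count by direction cannot show whether they acted together on GJA5. Of 28 measured, 3 were higher and 4 lower in IVM, 25% called against 16.7% of all genes. The median was -0.05 against 0.08 over all genes. GATA4, which activates cardiac genes, was higher in IVM by 1.31 ± 0.23 (SE, adjusted p = 0.00421, limma). It is also among the granulosa and cumulus genes counted above. ENG, a TGF-beta co-receptor of endothelium, was higher by 1.35 ± 0.16 (SE, adjusted p = 0.00055, limma), and HEY2, a Notch target and repressor, by 0.69. KLF4 and KLF2, shear-responsive factors of endothelium, were lower in IVM by -3.45 ± 0.70 (SE, adjusted p = 0.00941, limma) and by -2.20 ± 0.33 (SE, adjusted p = 0.00214, limma). KLF4, KLF2, ENG and HEY2 were each called in 1 of 2 probe sets, and GATA4 in 2 of 3. SMAD4, the common mediator of TGF-beta and BMP signals, was lower by -1.32 ± 0.31 (SE, adjusted p = 0.0182, limma). This call was in 1 of its 2 probe sets and was lost without IVM 1 or IVM 2. With PM 1, VVM 2 and VVM 3 left out, 3 of the 28 were higher and 1 lower, and KLF4, SMAD4 and HOPX were no longer called. HOPX, a cofactor of the cardiac conduction system, was lower by -0.997 with all arrays (adjusted p = 0.0404, limma) in 1 of its 2 probe sets. That call was also lost without IVM 1, IVM 3, PM 1, PM 3, VVM 1, VVM 2 or VVM 4.

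The known cardiac activator TBX5 differed by 0.13 between IVM and VVM (adjusted p = 0.453, limma). GATA6 differed by -0.21 (adjusted p = 0.387, limma). Against PM, 21 of the 28 were called in IVM, 11 higher and 10 lower, and 13 in VVM, 7 higher and 6 lower. These are 75% and 46.4%, against 45.9% and 39.8% of all genes. After centring the split was 6 higher and 11 lower in IVM and 5 higher and 6 lower in VVM. With PM 1, VVM 2 and VVM 3 dropped it was 7 and 10 in IVM, and 2 and 4 in VVM. The endothelial factor ERG was lower than in PM in both matured groups, by -3.67 ± 0.51 (SE, adjusted p = 0.000314, limma) in IVM and by -2.63 ± 0.47 (SE, adjusted p = 0.00167, limma) in VVM. GATA4 was lower in VVM than in PM by -2.94 ± 0.21 (SE, adjusted p = 8.28e-06, limma), as was HEY2 by -2.28 ± 0.14 (SE, adjusted p = 3.24e-06, limma). Its relative HEY1 was higher by 1.95 ± 0.46 (SE, adjusted p = 0.00851, limma). RBPJ, the DNA-binding partner of Notch, was lower by -2.19 in IVM and by -1.76 in VVM. It was called in 1 of 3 probe sets in IVM and in 2 of 3 in VVM.

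Genes for proteins that bind, anchor or turn over connexins were lower in IVM than in VVM where they were called. Of 20 measured, 0 were higher and 7 lower, with a median of -0.33. Over all genes 9.06% were higher and 7.63% lower, with a median of 0.08. DLG1, a membrane scaffold, was lower by -1.56 ± 0.19 (SE, adjusted p = 0.000635, limma) and was called in 2 of its 5 probe sets. NEDD4, a ubiquitin ligase that acts on connexins, was lower by -1.49 ± 0.21 (SE, adjusted p = 0.00168, limma). CTNND1, a catenin of adherens junctions, was lower by -1.44 ± 0.20 (SE, adjusted p = 0.00151, limma) and was called in 2 of its 3 probe sets. CNST, which targets connexins to the cell surface, was lower by -1.09 ± 0.20 (SE, adjusted p = 0.00529, limma). TJP1, the scaffold ZO-1, was lower by -0.98, and SRC, a kinase that phosphorylates connexins, by -0.81, and each of these 2 calls was lost without IVM 2 (-0.74 and -0.75). SRC was called in 1 of its 4 probe sets. CCN3 was lower by -1.16 ± 0.30 (SE, adjusted p = 0.0295, limma) in 1 of its 2 probe sets, lost without any 1 of the IVM arrays or VVM 3. With PM 1, VVM 2 and VVM 3 left out, 5 were lower and 1 was higher, and CCN3, SRC and TJP1 were not called.

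Most of these partners also differed from PM, where many of all genes were called. In IVM, 3 were higher and 10 lower than in PM, 65% called against 45.9% of all genes. In VVM, 6 were higher and 8 lower, 70% called against 39.8%. SRC was lower by -2.52 and CNST by -2.37 in IVM, and by -1.71 and -1.28 in VVM. In both comparisons SRC was called in only 1 of its 4 probe sets. CAV1, which forms caveolae, was higher than in PM by 3.47 ± 0.58 (SE, adjusted p = 0.00112, limma) in VVM and by 2.20 ± 0.63 (SE, adjusted p = 0.017, limma) in IVM. The latter was called in 1 of 3 probe sets and was lost without IVM 1 or IVM 2.

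Cyclic nucleotides pass through gap junctions, and 17 genes that make, break down or read them were measured. Between IVM and VVM, limma called 0 of the 17, against 16.7% of all genes, and 4 had an unadjusted p under 0.05. The median was 0.05. Against PM, 2 were higher and 3 lower in IVM, and 3 were higher and 3 lower in VVM. These are 29.4% and 35.3% called, against 45.9% and 39.8% of all genes. PDE5A, which degrades cyclic GMP, rose by 5.48 ± 0.31 (SE, adjusted p = 3.48e-06, limma) in IVM and by 5.23 ± 0.29 (SE, adjusted p = 1.84e-06, limma) in VVM. It was called in 3 of its 5 probe sets. NPPC, the precursor of C-type natriuretic peptide, was higher by 0.74 in IVM and 0.69 in VVM, and its receptor NPR2 was lower by -0.92 in IVM. ADCY9, an adenylyl cyclase, was lower by -1.83 in IVM, called in 1 of its 2 probe sets, and by -1.23 in VVM. The NPPC and ADCY9 calls in VVM were lost when PM 1, VVM 2 and VVM 3 were all dropped. PDE5A thus rose in both matured groups, and its IVM minus VVM difference was 0.25 ± 0.31 (SE, adjusted p = 0.648, limma). In the brighter GJA5 probe set, by contrast, IVM and VVM lay on opposite sides of PM, while in the dimmer one only IVM stood apart.

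**Figure D4:**
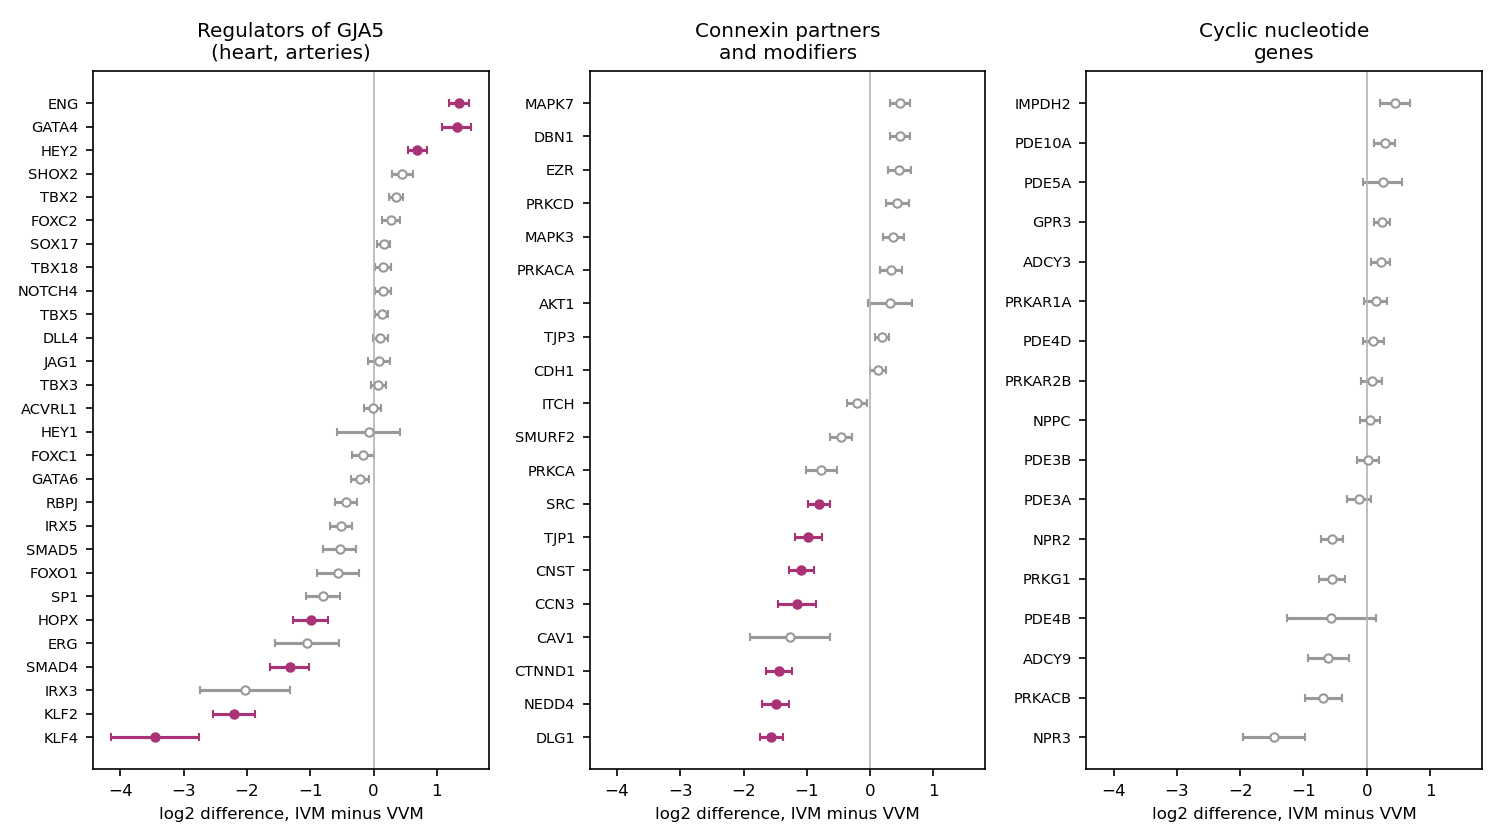
Log2 difference of IVM minus VVM ± SE (horizontal axes) for 28 regulators of GJA5 in heart and arteries, 20 partners and modifiers of connexins and 17 cyclic nucleotide genes, with filled points for genes called at an adjusted p under 0.05 by limma. Among the regulators 3 are higher and 4 lower, among the partners 7 are lower, and no cyclic nucleotide gene is called.

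The genes whose profile was most like that of GJA5 were ranked by the root mean square difference between mean-centred log2 profiles over the 11 arrays, among 12844 genes. They were chosen for their values, so none is tested. CRIP1, a LIM domain protein, was closest at 0.98, with means of 9.31 ± 0.62 (SD, n = 4), 10.87 ± 0.78 (SD, n = 3) and 7.81 ± 0.45 (SD, n = 4) in PM, IVM and VVM. ASNS, asparagine synthetase, followed at 1.02 and PTCHD1 at 1.05. IPO4, an importin, came next at 1.14. ENC1 at 1.14 and PHGDH, the first enzyme of serine synthesis, at 1.16 followed. BMPER, a secreted BMP modulator, stood at 1.17 and ST8SIA5, a sialyltransferase, at 1.17. PCK1, a gluconeogenic enzyme, stood at 1.20 and SMAD7, an inhibitory SMAD, at 1.25. For scale, GJA5 itself has a root mean square of 2.01 around its own mean.

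All 10 had the group order of GJA5 in their means, with IVM highest and VVM lowest, but few spread their difference evenly. SMAD7 was 3.51 above PM in IVM and only -0.35 from PM in VVM, while PTCHD1 was 0.68 above PM in IVM and -2.07 from PM in VVM. CRIP1 came nearest to an even spread, with 1.57 in IVM and -1.50 in VVM. The nearest mirror images were OPN3, an opsin, at 1.02 and TMEM150C at 1.03. SLC2A3, a glucose transporter, stood at 1.06, CCBE1 at 1.06 and NR1D1, a nuclear receptor of the circadian clock, at 1.08. OPN3 averaged 7.50 in PM, 5.68 in IVM and 9.35 in VVM. Ranked by Pearson correlation in place of the distance, 1 gene of the 10, IPO4 (r = 0.94 over 11 arrays), stayed among the top 10.

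**Figure D5:**
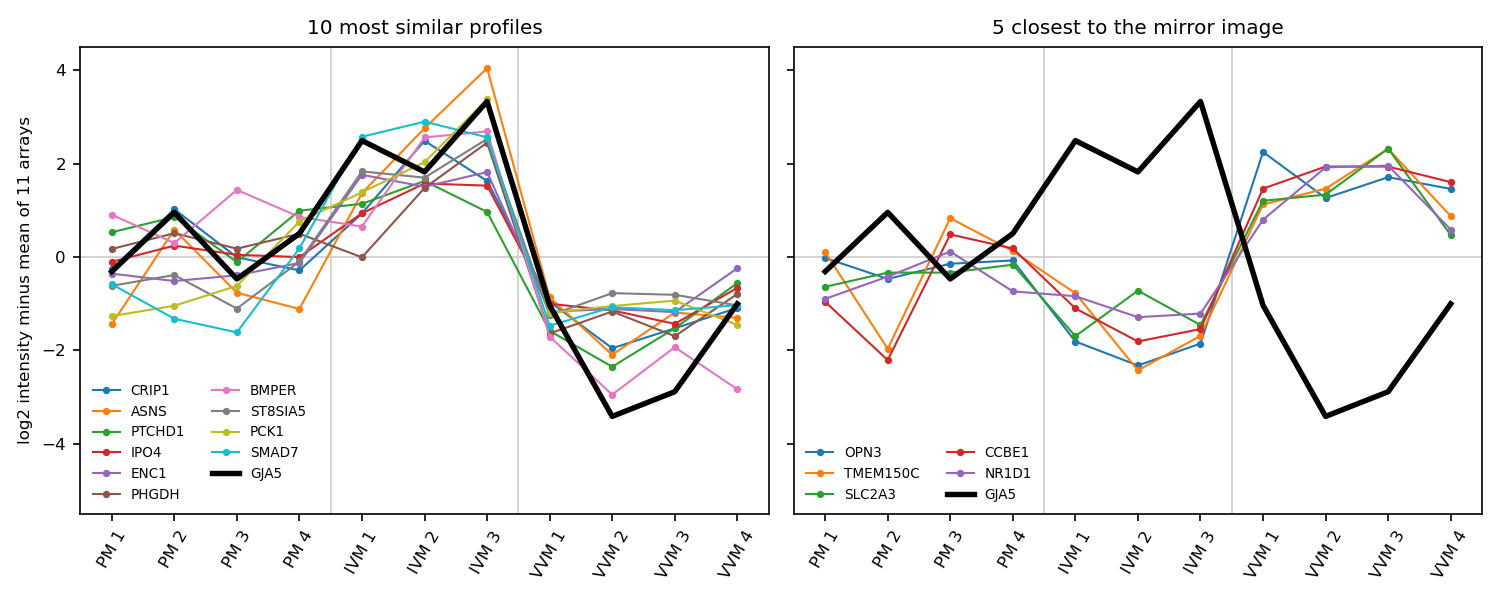
Log2 intensity minus the mean of the 11 arrays (vertical axis) for GJA5 (black) and the 10 genes with the most similar profile (left) or the 5 nearest its mirror image (right), by array. On the left all lines lie below 0 in the VVM arrays and, but for PHGDH in IVM 1, clearly above 0 in the IVM arrays, and on the right the reverse. GJA5 is the lowest line of the left panel in VVM 2 and VVM 3.

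The genes next to GJA5 in the RefSeq annotation of the macaque were looked up outside the rule for named genes. On one side, ACP6, a lysophosphatidic acid phosphatase, was higher in IVM than in VVM by 1.07 ± 0.21 (SE, adjusted p = 0.00846, limma) and than in PM by 1.35 ± 0.21 (SE, adjusted p = 0.000698, limma). ACP6 in VVM differed from PM by 0.28 (adjusted p = 0.31, limma). BCL9, a cofactor of beta-catenin, was lower than in PM by -1.39 in IVM and by -1.72 in VVM, and CHD1L, a chromatin remodeller, by -1.06 and -1.51. Neither was called between IVM and VVM. With the hybridization controls as a covariate, both ACP6 calls were lost (adjusted p = 0.196 against VVM and 0.44 against PM, limma). The BCL9 call in IVM and both CHD1L calls were lost in that fit too.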

How the data were processed

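The values the authors deposited are intensity per probe set on a linear scale, made with RMA in Affymetrix Expression Console per the submitters' processing notes, which give no versions. Per the labels' protocols, total RNA was amplified in repeated rounds and labelled with biotin. Log2 of the deposited intensity was taken with no pseudocount. The 99 control probe sets were left out of tests. All 11 arrays entered 1 limma fit (limma 3.58.1, R 4.3.3) with 3 group means and empirical Bayes moderation, and p-values are two-sided, adjusted by Benjamini-Hochberg over 52766 probe sets for each comparison. A gene is represented by the single-symbol probe set of highest mean, and a call is an adjusted p under 0.05. No filter on dim probe sets was used. Symbols came from the array annotation, of which 24629 of 25330 rows matched RefSeq by gene identifier, and GJC3 carries an identifier that RefSeq does not list for the macaque. RefSeq's order of genes (assembly T2T-MMU8v2.0) was used for names of neighbours only, with no coordinates. GJA5 and the gene lists were chosen with earlier results of these data known, so list counts are descriptions. Named were both GJA5 probe sets, every measured connexin and pannexin, up to 5 members of largest absolute difference among called genes of each other list (and any member that a small count needs), the 10 most similar profiles and 5 mirror images, and markers. TBX5, GATA6, KDR, CDH5, CLDN5, TIE1, ROBO4, INHA and the neighbouring genes were named outside this rule, with values known. Samples were treated as unpaired. Residual correlations of same-numbered arrays ran from -0.107 to 0.101, which cannot exclude that a number marks a shared animal. The number of arrays limits the precision. In simulated data with 100 probe sets changed per size, the fit recovered 65%, 63% and 61% of changes of 1 on the log2 scale and 95%, 91% and 91% of changes of 2 (IVM minus VVM first, then IVM minus PM, then VVM minus PM), with 9, 10 and 6 false calls. Far fewer probe sets changed there than were called in the real arrays, and the simulated noise was independent between probe sets. The recovered shares therefore need not hold for these comparisons.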

Additional observations from a re-analysis of the deposited data

Results flagged for a closer look

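In the brighter probe set, GJA5 lay on opposite sides of PM after the 2 kinds of maturation. Every IVM array was above every PM array and every VVM array below, with an IVM minus VVM difference of 4.63 on the log2 scale. The difference was not tested, because the gene was chosen for this pattern. In the dimmer probe set the PM and VVM arrays overlapped.

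In groups of 4 arrays, chance alone sets 1 array far from the others in about 1 in 20 groups, and 11 such arrays appeared among the 188 groups examined. The connexin GJD4 read 5.93 in VVM 3 against 5.57 to 5.59 in the other VVM arrays, and PANX3 read 2.48 in PM 2 against 2.63 to 2.65. Among genes known to control GJA5 elsewhere, KLF2 read 8.77 in PM 3 against 7.79 to 7.93, GATA4 read 11.32 in PM 2 against 10.71 to 10.76, and NOTCH4 read 5.53 in PM 2 against 5.79 to 5.84. Among cell type markers, MYH11 read 7.17 in VVM 1 against 9 to 9.31, LYZ read 4.10 in PM 1 against 3.36 to 3.41, and TYROBP read 4.51 in PM 2 against 4.91 to 4.94. CLDN5 read 5.81 in VVM 4 against 6.33 to 6.43, and INHA read 14.01 in PM 3 against 13.78 to 13.80. ENC1, one of the genes most like GJA5, read 10.47 in VVM 4 against 9.53 to 9.60.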

How the results depend on the processing

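Leaving out each array in turn, GJA5 in the brighter probe set stayed between 4.19 and 5.00 for IVM minus VVM, between 1.99 and 2.74 for IVM minus PM and between -2.62 and -1.81 for VVM minus PM. Called connexins other than GJA5 ranged from 1 to 4 for IVM against PM and from 1 to 3 for VVM against PM, and called probe sets for IVM against VVM from 3445 (without IVM 2) to 6298, against 5989 with all arrays. With PM 1, VVM 2 and VVM 3 left out, GJA5 differed by 3.57 between IVM and VVM, 3243 and 7735 probe sets were called for IVM against VVM and VVM against PM (16483 with all arrays), and 1 connexin was called in each comparison with PM. With the hybridization controls as a covariate the GJA5 differences were 5.96, 5.18 and -0.79 (IVM minus VVM, IVM minus PM, VVM minus PM), 718, 8 and 3721 probe sets were called, and 0 connexins were called for IVM against PM (1 at an unadjusted p under 0.05 in limma) and 1 for VVM against PM. With a mean log2 of at least 6, 11390 and 10478 probe sets were called against PM in IVM (21448 unfiltered) and VVM, and at least a 2-fold difference left 2836, 6872 and 6111. Both left 0 connexins called in limma. The called connexins GJC3, GJD2 and GJD4 averaged under 6, and the largest connexin difference was 0.57, short of 2-fold. The cut-offs alone therefore removed these calls. The dimmer GJA5 probe set gave 0.92, 0.92 and -0.002, and the mean of both gave 2.78 for IVM minus VVM and -1.13 for VVM minus PM. With the replicate number as a block, 1 connexin was called for VVM against PM, and GJA5 differed by 4.87, 2.62 and -2.25. Whether a shared number marks a shared animal is unknown. In the block fit, granulosa and cumulus genes higher in IVM than in VVM numbered 4 in place of 7. PANX1, TJP1 and ZP1 were no longer called between IVM and VVM. Centring and a further quantile normalization kept the direction of all 3 GJA5 differences and the numbers of called probe sets and of called connexins within 1.5 times. By direction, centring took genes called higher in IVM than in PM from 3539 to 2075 and regulators of GJA5 from 11 to 6, and both settings gave 1 connexin higher and 1 lower than PM in place of 2 higher. Where values moved, the cause was not tested beyond the smaller sets of arrays or probe sets used. The arrays carry no detection calls here, which limits what the dimmer probe set can show.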
